A study of Mus musculus with 16 samples.

Results

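The genes described here are 35 enzymes and regulators of sterol and fatty acid synthesis, taken by symbol from a fixed list that covers the route from acetyl-CoA to cholesterol, the SREBP regulators, and the synthesis, desaturation and elongation of fatty acids. Ensembl identifiers in the deposited gene table were matched to symbols, and 34 of the 35 genes were found among 21804 genes. Srebf2 was not analysed here. The 34 genes comprised 8 enzymes from acetyl-CoA to farnesyl and geranylgeranyl diphosphate, 11 enzymes from squalene to cholesterol, 5 regulators or sterol carriers, 3 enzymes that build fatty acids, and 7 desaturases and elongases. All 34 passed the filter on low counts in each of the 5 comparisons below, and their lowest value in any library was 8.40 CPM (the count relative to its library's size, scaled by the TMM method over the 16 libraries). The floor of 3 counts per library corresponded to 0.103 to 0.224 CPM.

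Cholesterol is made from acetyl-CoA through mevalonate, isoprenoid diphosphates, squalene and lanosterol. SREBP transcription factors, held in the endoplasmic reticulum by SCAP and INSIG when sterols are plentiful, switch on most enzymes of this route together when sterols run low. The brain makes its own cholesterol because plasma lipoproteins hardly cross the blood-brain barrier. Oligodendrocytes need large amounts of it, and of long and unsaturated fatty acids, for myelin, and astrocytes supply neurons with lipid.

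RNA was sequenced from brain pieces of 8 C57BL/6 mice aged 4 months, 4 with 1 copy of the Pdgfb ret allele (ret/wt, the controls) and 4 with 2 copies (ret/ret). The ret allele lacks the motif that keeps the growth factor PDGF-B near the endothelial cells that release it, and it is carried by every cell of the animal, in controls as well as in ret/ret mice. Each animal gave a cortex and a thalamus library, so there were 4 groups with n = 4, and in each region the replicates were separate animals. In ret/ret mice the thalamus pieces were the calcified spots, recognised by their autofluorescence and cut out. Control thalamus came from the same area without that selection, so genotype and dissection cannot be told apart in the thalamus. Deposited totals ran from 13415391 to 29135064 estimated counts per library.

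Markers of the 2 regions differed between groups: of 7 cortical neuron genes tested, 5 were lower in thalamus in each genotype. Of the thalamic neuron genes, 4 of 8 (ret/ret) and 3 of 7 (ret/wt) were higher there, with 1 lower in ret/wt. Summed cortical markers separated every library by its label, at 775 to 2600 CPM in cortex and 103 to 446 CPM in thalamus. Summed thalamic markers did not: ret/ret cortex replicate 2, at 735 CPM, lay above ret/ret thalamus replicates 1 and 4, at 650 and 520 CPM. The animals numbered ret/wt 3 and ret/ret 2 stood apart, with the Y-linked gene Ddx3y at 55.2 to 68.7 CPM in both of their libraries and at most 0.219 CPM in the other 12. Their cortex libraries also carried cerebellar transcripts, with 8 cerebellar markers summing to 1525 and 3869 CPM against 144 to 235 CPM in the other 6 cortex libraries. In whole tissue, fewer cells of a type and less RNA per cell cannot be told apart.

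Levels between genes were compared as CPM per kilobase of transcript, averaged over the 4 groups. Scd2, a stearoyl-CoA desaturase of brain, stood far above the rest at 445 CPM per kilobase. Fads1 (a fatty acid desaturase) followed at 90.7, Hmgcs1 (HMG-CoA synthase) at 87.8 and Scd1 at 79.4 CPM per kilobase. Elovl2, which elongates very long polyunsaturated fatty acids, was the lowest at 7.15, below Lss (lanosterol synthase) at 9.11 and Mvd (mevalonate diphosphate decarboxylase) at 9.62 CPM per kilobase. The 2 stearoyl-CoA desaturases are close paralogs, and the estimation of counts from shared sequence could move reads between them.

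Across the 5 comparisons few of the 34 genes passed a test. None passed for genotype in thalamus, none for genotype in cortex, 1 (Srebf1) was higher in thalamus than in cortex of ret/ret mice, and 2 (Scd1 and Scd2) were higher in thalamus than in cortex of ret/wt mice. None passed for the difference between regions in the genotype effect. All calls are from the edgeR quasi-likelihood test, Benjamini-Hochberg adjusted over all genes tested, at an adjusted p under 0.05, and the log2 fold changes of the 34 genes were centred near 0 for genotype. The library of ret/ret cortex replicate 1 stood apart, with most enzymes of sterol synthesis high. The map of all 34 genes over the 16 libraries shows both the regional step of the desaturases and that library.

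**Figure D1:**
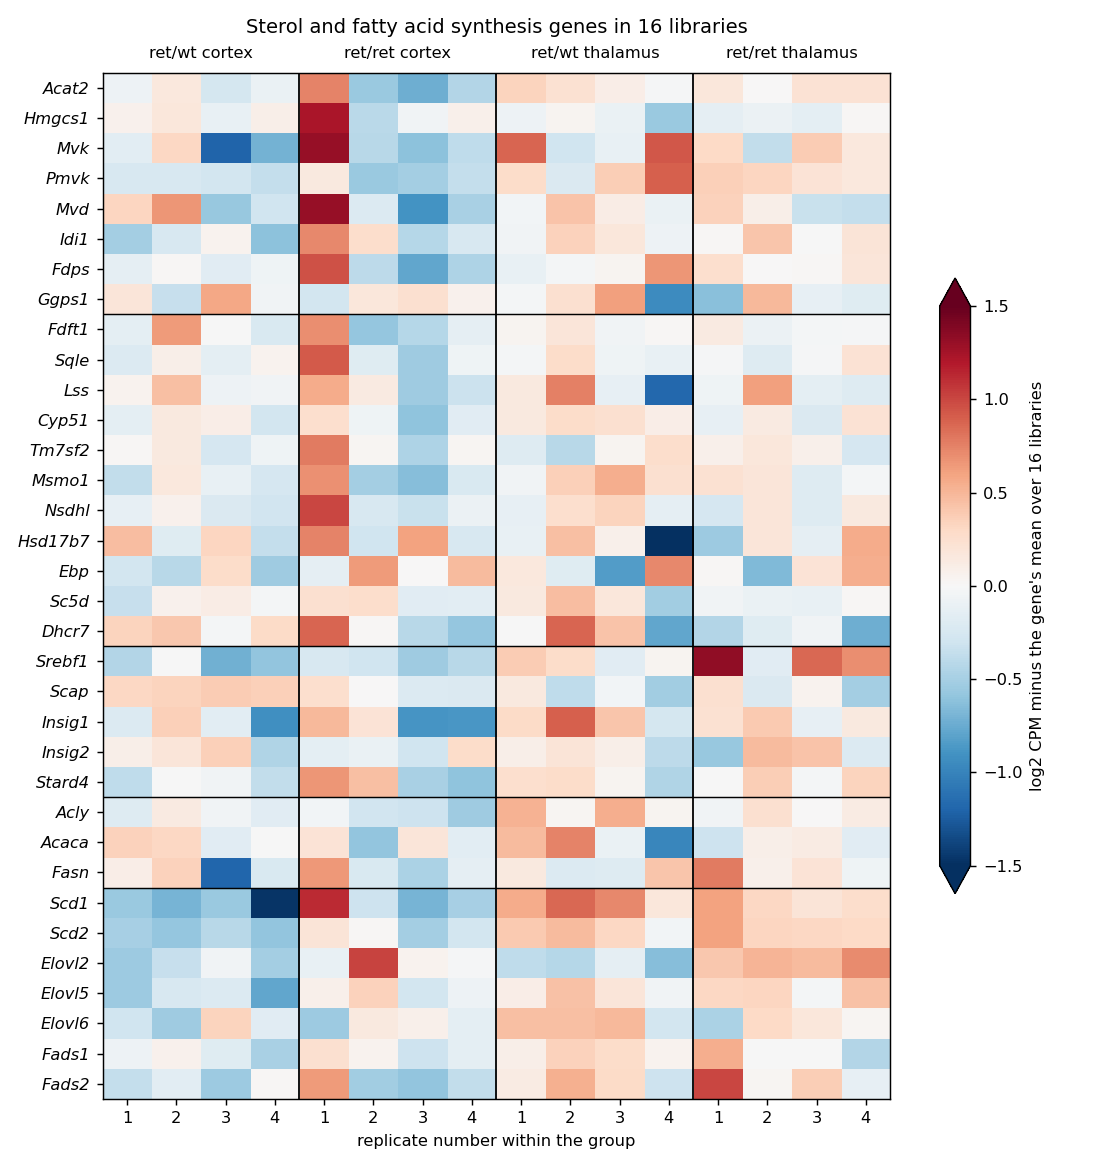
Level of each of the 34 genes (rows, by role) in each of the 16 libraries (columns, by group and replicate number), as log2 CPM minus the gene's mean over the 16 libraries (colour, from 1.5 below to 1.5 above). The ret/ret cortex replicate 1 column is red for most sterol enzymes. Scd1 and Scd2 are blue in ret/wt cortex and red in both thalamus groups, except Scd2 in ret/wt thalamus replicate 4, which lies near its mean.

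The share of all genes that passed gives the scale for these counts. For genotype in thalamus, 0 of 14767 genes passed (0%), and for genotype in cortex 3 of 14288 did (0.0210%). For region, 1398 of 14715 genes passed in ret/ret (9.50%, with 4.10% higher in thalamus) and 1813 of 14442 in ret/wt (12.6%, with 5.44% higher in thalamus), beside 1 and 2 of the 34 genes (2.94% and 5.88%). These shares are descriptions with no test. For the difference of differences, 0 of 15286 genes passed (0%).

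At an unadjusted p under 0.05 in the edgeR quasi-likelihood test, the counts among the 34 genes were 2 for thalamus genotype, 3 for cortex genotype and 1 for the difference of differences, beside 3.93%, 3.77% and 1.60% of all genes. DESeq2 called 1 of the 34 (Elovl2) for thalamus genotype, 0 for cortex genotype and 0 for the difference of differences, and limma-voom called 0 in each. Genotype moved the median of the 34 genes by -0.0024 on the log2 scale in thalamus, with 17 higher in ret/ret, beside a median of -0.018 and 47.1% higher for all genes. In cortex the median was 0.11 with 24 higher, beside 0.012 and 51.9% higher for all genes, and without ret/ret cortex replicate 1 it was -0.12 with 12 higher.

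**Figure D2:**
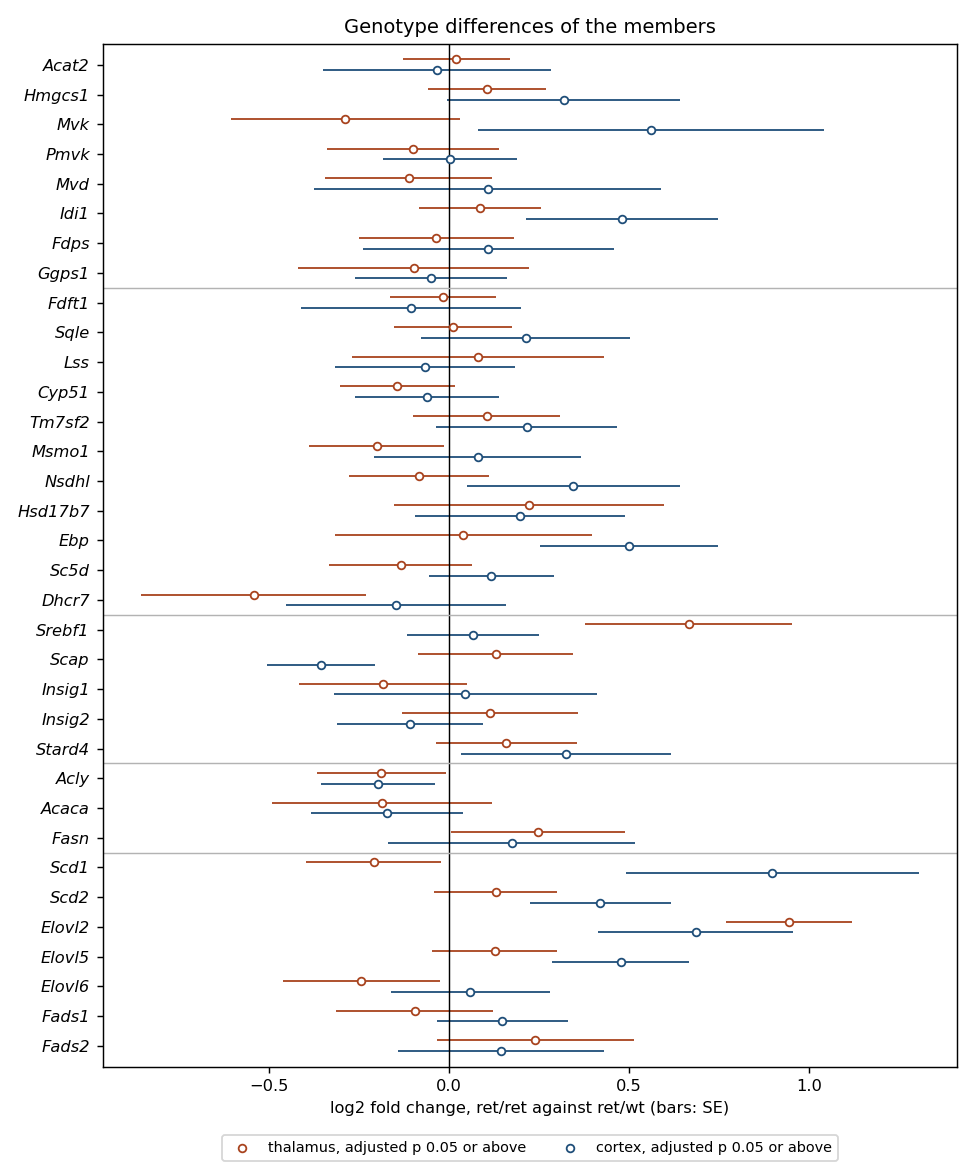
Log2 fold change of ret/ret against ret/wt (horizontal axis) for each of the 34 genes (rows, by role), in thalamus and in cortex, from the edgeR quasi-likelihood fit. Points are estimates and bars are 1 SE; every point is open because no adjusted p was under 0.05, and Elovl2 in thalamus lies farthest from 0 relative to its SE.

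The early enzymes carry acetyl-CoA to the isoprenoid diphosphates. Acat2 joins acetyl-CoA units, Hmgcs1 makes HMG-CoA, Mvk and Pmvk phosphorylate mevalonate, Mvd decarboxylates it, Idi1 isomerises the product, and Fdps and Ggps1 build the longer diphosphates. In ret/ret cortex, Hmgcs1 was at 686, 222, 281 and 310 CPM in replicates 1 to 4, and in ret/wt cortex at 306, 329, 272 and 310 CPM. Mvk was at 53.2, 16.2, 14 and 16.5 CPM in ret/ret cortex and at 19.3, 26.8, 9.36 and 13.2 CPM in ret/wt cortex. Mvd was at 39.0, 13.7, 8.43 and 11.3 CPM in ret/ret cortex and at 19.7, 24.9, 10.6 and 12.8 CPM in ret/wt cortex. For all 3 genes the first ret/ret library was the highest of the 16 in the data set, while the other 3 lay within or below the range of the controls.

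Fdps (farnesyl diphosphate synthase) showed the same layout, with 121 CPM in ret/ret cortex replicate 1, 36.2 to 47.6 CPM in the other 3 and 55.6 to 62.9 CPM in ret/wt cortex. Acat2 was at 91.6 CPM in that library against 32.9 to 40.1 CPM in the other 3, and Idi1 at 149 against 66.8 to 108 CPM. Ggps1, whose product feeds protein prenylation, did not share the layout: it was at 60.3 CPM in that library, below the other 3 at 76.1 to 85.5 CPM. With 1 library so far from its group, the genotype differences of the 8 early enzymes in cortex had wide errors, from -0.05 (Ggps1) to 0.56 (Mvk, SE 0.48) on the log2 scale, and none passed (the edgeR quasi-likelihood test, adjusted p = 0.999 for each). In thalamus the same 8 genes lay between -0.29 (Mvk) and 0.11 (Hmgcs1).

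Pmvk (phosphomevalonate kinase), picked after its values were seen, was the early enzyme with the clearest step between regions. It was at 30.8, 30.8, 30.1 and 28.2 CPM in ret/wt cortex and at 44.0, 31.3, 46.9 and 67.7 CPM in ret/wt thalamus. In ret/ret it was at 40.3, 24.7, 25.4 and 28.3 CPM in cortex and at 46.4, 45.5, 42.0 and 40.5 CPM in thalamus. The regions did not overlap in either genotype, yet neither difference passed: 0.68 on the log2 scale in ret/wt (SE 0.24) and 0.56 in ret/ret (SE 0.19), with adjusted p = 0.0951 and adjusted p = 0.0911 in the edgeR quasi-likelihood test. In each genotype 2 of 16 other settings made the call. In ret/ret these were DESeq2 (adjusted p = 0.0407) and the fit without cortex replicate 1 (0.77, adjusted p = 0.0242 in the edgeR quasi-likelihood test). That library held the highest Pmvk value of its group, so leaving it out widens the step by construction.

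The 4 promoters printed here belong to sterol enzymes that stood high in ret/ret cortex replicate 1 relative to the other ret/ret cortex libraries, with windows from the RefSeq table used (build GRCm38.p6). They were chosen after the motif counts were seen. Acat2, whose ratio of 2.47 lay above that of Nsdhl at 2.30, has a window that overlaps its gene as annotated in GENCODE, so it is not printed, and that window held 0 sterol regulatory elements and 0 CCAAT boxes. Each is the 250 bases before the annotated start, read 5′ to 3′ on the gene's strand. Capitals mark the sterol regulatory element, searched as TCACNCCAC, the site SREBP proteins are known to bind, and the CCAAT box, searched as CCAAT, the site of NF-Y. Both were searched on both strands, so a CCAAT box on the other strand reads ATTGG, and the 2 motifs share no letters in these windows. The windows are chr13:119690101-119690350 (plus strand) for Hmgcs1, chr5:114444019-114444268 (plus strand) for Mvk, chr8:122443423-122443672 (minus strand) for Mvd and chrX:72918271-72918520 (plus strand) for Nsdhl.
Hmgcs1: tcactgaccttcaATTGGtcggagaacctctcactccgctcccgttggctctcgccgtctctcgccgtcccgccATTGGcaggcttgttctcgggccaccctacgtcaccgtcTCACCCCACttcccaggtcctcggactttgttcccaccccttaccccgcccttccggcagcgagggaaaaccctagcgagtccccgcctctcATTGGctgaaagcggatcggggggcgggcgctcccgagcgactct
Mvk: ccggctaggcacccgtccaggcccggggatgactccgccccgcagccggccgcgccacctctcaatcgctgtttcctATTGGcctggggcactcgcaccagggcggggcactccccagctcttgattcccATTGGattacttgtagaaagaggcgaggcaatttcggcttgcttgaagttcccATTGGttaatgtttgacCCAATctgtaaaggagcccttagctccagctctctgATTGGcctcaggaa
Mvd: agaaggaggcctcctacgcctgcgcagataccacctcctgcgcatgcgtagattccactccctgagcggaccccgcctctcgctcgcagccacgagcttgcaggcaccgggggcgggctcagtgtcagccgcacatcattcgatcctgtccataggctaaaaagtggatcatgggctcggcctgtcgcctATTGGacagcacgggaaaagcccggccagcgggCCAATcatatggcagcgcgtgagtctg
Nsdhl: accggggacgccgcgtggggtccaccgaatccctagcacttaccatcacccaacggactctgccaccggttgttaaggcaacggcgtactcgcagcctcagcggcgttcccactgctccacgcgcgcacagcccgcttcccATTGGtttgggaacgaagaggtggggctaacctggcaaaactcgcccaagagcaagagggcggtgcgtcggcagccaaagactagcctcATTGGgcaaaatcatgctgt

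The Hmgcs1 window held 1 sterol regulatory element, 137 bases before the start, and 3 CCAAT boxes. The Mvk window held 5 CCAAT boxes, and the Mvd and Nsdhl windows 2 each. Windows of 300 bases, which add 50 bases after the start, were found for 27 of the 34 genes. The exact sterol regulatory element was in 1 of these 27 genes (Hmgcs1, 3.70%) and in 1.41% of 17491 protein-coding genes. The CCAAT box was in 21 of 27 (77.8%) beside 42.3% of protein-coding genes, and the GC box, searched as GGGCGG on both strands, in 21 of 27 (77.8%) beside 49.2%. These are descriptions of letters in a window. Variants of the sterol regulatory element and sites outside the window were not searched.

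The 11 later enzymes turn squalene into cholesterol. Fdft1 makes squalene, Sqle oxidises it and Lss closes the rings; Cyp51, Tm7sf2, Msmo1, Nsdhl and Hsd17b7 strip and reduce the early sterols, and Ebp, Sc5d and Dhcr7 complete the route. Nsdhl was at 57.1, 24.3, 22.6 and 26.9 CPM in ret/ret cortex and at 26.3, 29.9, 24.7 and 23.5 CPM in ret/wt cortex. Msmo1 was at 182 CPM in ret/ret cortex replicate 1 and at 72.9 to 97.3 CPM in the other 3, Sqle at 137 against 50.1 to 69.0 CPM, and Fdft1 at 184 against 75.9 to 104 CPM. For these 4 genes the first library alone exceeded the highest control. That did not hold for every sterol enzyme: Idi1 in replicate 2, at 108 CPM, also lay above its highest control at 93.0 CPM. Cyp51 (121 against 66.4 to 96.8 CPM) and Sc5d (107 against 80.7 to 109 CPM) stood out less, and Ebp was lowest there (15.2 against 16.7 to 25.9 CPM).

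Dhcr7, which catalyses the last step to cholesterol, was the later enzyme with the smallest unadjusted p for genotype in thalamus. It was at 26.2, 31.3, 34.3 and 21.4 CPM in ret/ret thalamus and at 35.4, 65.4, 47.8 and 20.8 CPM in ret/wt thalamus. The groups overlapped, because ret/wt replicate 4 was the lowest of the 8, and the difference of -0.54 on the log2 scale (SE 0.31) did not pass (the edgeR quasi-likelihood test, unadjusted p = 0.112, adjusted p = 1). It ranged from -0.76 to -0.26 with 1 library left out at a time. The other 10 lay between -0.20 (Msmo1) and 0.22 (Hsd17b7) in thalamus. In cortex the 11 lay between -0.15 (Dhcr7) and 0.50 (Ebp, SE 0.25).

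Across both arms of sterol synthesis, ret/ret cortex replicate 1 was compared with the other 3 libraries of its group. Of the 19 enzymes, 15 were at least 1.5-fold above the mean of the other 3, and the median ratio was 2.09. Of the 34 genes, 20 were at least 1.5-fold above (58.8%), beside 12.1% of the 15286 genes tested over all libraries. It was the highest of its group for 27 of the 34, beside 27.3% of all genes, and the highest of all 16 libraries for 14, beside 5.50% of all genes. The ratios (with 0.5 CPM added to both sides) were largest for Mvd at 3.40, Mvk at 3.34, Scd1 at 3.04 and Fdps at 2.79. This library was picked out after its values were seen, so these shares are descriptions with no test.

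Genes outside the set were counted in the same library. Of 17 other sterol and SREBP genes, 6 were at least 1.5-fold above, of 22 other fatty acid genes 3, and of 11 oxysterol and LXR genes 1. Not every regulator joined: Insig1 was at a ratio of 1.87, Scap at 1.31, Srebf1 at 1.12 and Insig2 at 0.920. In the thalamus library of the same animal, 0 of the 19 sterol enzymes were at least 1.5-fold above its group. Over the 34 genes its median ratio was 1.01, with 4 at least 1.5-fold above, beside 13% of all genes. It was the highest of all 16 libraries for 5 of the 34, beside 10.6% of all genes. A control, ret/wt thalamus replicate 4, had the largest share of all genes at least 1.5-fold above its group, 17.5%. Of the 34 genes, 4 were that high in it and 10 were low by the same factor. The share of all genes that low was not counted.

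Markers of cell types in that library were measured beside this. Its 11 oligodendrocyte markers summed to 1741 CPM, below the other ret/ret cortex libraries at 2879 to 3157 CPM, and none was at 0. Of 6 markers of oligodendrocyte precursors, 5 were highest in it. Its 10 microglial markers summed to 640 CPM against 307 to 487 CPM in the other 3, and its 8 endothelial markers to 393 CPM, the highest of the 8 cortex libraries. Its 7 cortical neuron markers summed to 2600 CPM against 775 to 1733 CPM in the other 3. Their mean log2(CPM + 1) was 5.93 against 5.34 to 6.96, so single markers weighed on the sum. General neuronal markers summed to 8943 CPM against 6491 to 10431 CPM, and astrocyte markers to 8971 CPM against 7229 to 9486 CPM. The part of these cell types in the high sterol genes was not tested. Mitochondrial reads were 4.45% of its counts, and 3.22% to 12.1% over the series. Replicate 2, with the cerebellar transcripts, is 1 of the 3 libraries it was compared with. Against replicates 3 and 4 alone, 19 of the 34 genes were at least 1.5-fold above (55.9%, beside 13% of all genes), with a median ratio of 2.07 for the 19 sterol enzymes.

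**Figure D3:**
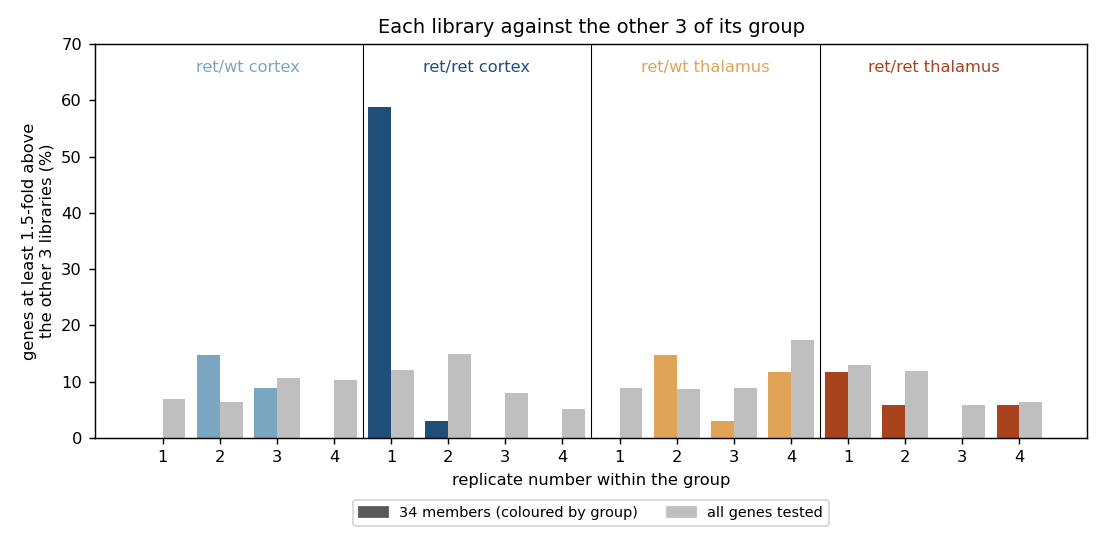
Percent of genes at least 1.5-fold above the mean of the other 3 libraries of the group (vertical axis), for each of the 16 libraries (horizontal axis), for the 34 genes (coloured bars) and for all 15286 genes tested (grey bars). The bar of ret/ret cortex replicate 1 is at 58.8% beside 12.1% of all genes, and no other coloured bar passes 14.7%. Low values are not counted.

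Srebf1 encodes the SREBP isoforms that mainly drive fatty acid synthesis, and it was the 1 regulator that passed a test. In ret/ret it was at 50.4, 48.6, 41.1 and 44.9 CPM in cortex and at 151, 52.9, 109 and 97.0 CPM in thalamus. In ret/wt it was at 44.0, 59.3, 36.2 and 39.5 CPM in cortex and at 77.7, 72.5, 53.2 and 61.4 CPM in thalamus. All 4 ret/ret thalamus libraries exceeded all 4 ret/ret cortex libraries, replicate 2 by a small margin, and in ret/wt the regions overlapped. Thalamus was 2.22-fold above cortex in ret/ret (1.15 on the log2 scale, SE 0.28, the edgeR quasi-likelihood test, adjusted p = 0.0327).

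That call depended on single libraries. With the animal as a block the Srebf1 call was lost (1.06 on the log2 scale, the edgeR quasi-likelihood test, adjusted p = 0.0617), and it was lost on leaving out either replicate 1 library or any of the 4 libraries of replicates 3 and 4, with adjusted p from 0.0563 to 0.0910. Without the ret/ret 2 animal, which stood apart, the Srebf1 call was kept (1.40, adjusted p = 0.00466 in the edgeR quasi-likelihood test). That animal held the lowest Srebf1 value of ret/ret thalamus, so leaving it out widens the step by construction. In ret/wt the regional difference of Srebf1 was 0.58 (SE 0.21, adjusted p = 0.108), and the difference between the genotypes in this step was 0.58 (SE 0.35, adjusted p = 1), so the step was not shown to differ between genotypes.

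For genotype in thalamus, Srebf1 was 0.67 higher in ret/ret on the log2 scale (SE 0.29), with overlapping groups, an unadjusted p of 0.0428 and an adjusted p of 1 in the edgeR quasi-likelihood test. Without ret/ret thalamus replicate 1 the difference was 0.41, and without replicate 2 it was 0.88. Replicate 1, the highest, also had the highest sums of microglial and endothelial markers in the series, 777 and 447 CPM, and all 10 microglial markers had a positive difference for ret/ret in thalamus, with a median of 0.69 on the log2 scale, 8 at an unadjusted p under 0.05 and 0 passing the edgeR quasi-likelihood test. Their part in the Srebf1 level was not tested. In cortex Srebf1 was 0.07 higher in ret/ret (SE 0.18, adjusted p = 0.999).

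Scap escorts SREBP proteins out of the endoplasmic reticulum. It was tight in ret/wt cortex, at 103, 104, 108 and 106 CPM, and spread in ret/ret cortex, at 98.6, 83.1, 71.7 and 70.9 CPM. The groups did not overlap, and the difference of -0.36 on the log2 scale (SE 0.15) had an unadjusted p of 0.0406 but an adjusted p of 0.999 in the edgeR quasi-likelihood test. It was 1 of the 34 genes without overlap between genotypes in cortex, beside 2.32% of all genes. In thalamus Scap was at 91.3, 63.5, 80.4 and 57.3 CPM in ret/wt and at 97.2, 70.8, 85.9 and 58.0 CPM in ret/ret, so the genotypes overlapped (0.13, SE 0.21, or 0.23 without the 2 animals that stood apart).

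Between regions, Scap in ret/wt was lower in every thalamus library than in any cortex library, with a log2 fold change of -0.51 (SE 0.18, the edgeR quasi-likelihood test, adjusted p = 0.0987). In ret/ret it was -0.05 (SE 0.19), and the difference between genotypes in this step was 0.47 (SE 0.26, unadjusted p = 0.0952, adjusted p = 1). Scap was the 1 gene of the set with non-overlapping regions that was lower in ret/wt thalamus, where 24 of the 34 genes were higher in ret/wt thalamus.

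Insig1 and Insig2, which retain the SCAP-SREBP complex in the endoplasmic reticulum, varied widely within groups. Insig1 was at 82.1, 122, 84.9 and 50.1 CPM in ret/wt cortex, at 132, 109, 51.2 and 51.7 CPM in ret/ret cortex, at 116, 175, 126 and 78.8 CPM in ret/wt thalamus and at 111, 124, 86.7 and 104 CPM in ret/ret thalamus. Insig2 was at 62.3, 66.8, 75.3 and 42.9 CPM in ret/wt cortex, at 53.2, 54.7, 47.7 and 71.0 CPM in ret/ret cortex, at 62.6, 67.2, 62.7 and 44.9 CPM in ret/wt thalamus and at 39.6, 81.4, 79.1 and 51.1 CPM in ret/ret thalamus. All groups overlapped for both genes. Genotype differences were -0.18 (SE 0.23) and 0.05 (SE 0.37) for Insig1 in thalamus and cortex, and 0.11 (SE 0.24) and -0.11 (SE 0.20) for Insig2, on the log2 scale, with adjusted p of 0.999 or 1 in the edgeR quasi-likelihood test.

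The thalamus stood above the cortex by 0.56 (SE 0.30, adjusted p = 0.261 in the edgeR quasi-likelihood test) for Insig1 in ret/wt and by 0.31 (SE 0.32, adjusted p = 0.567) in ret/ret. For Insig2 the regional differences were -0.05 (SE 0.21) and 0.15 (SE 0.25). Stard4, a carrier of cholesterol between membranes, had group means of 45.2 ± 6.25 CPM in ret/wt cortex, 55.8 ± 23.9 CPM in ret/ret cortex, 53.7 ± 11.4 CPM in ret/wt thalamus and 58.5 ± 8.74 CPM in ret/ret thalamus (each SD, n = 4). It passed no test.

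**Figure D4:**
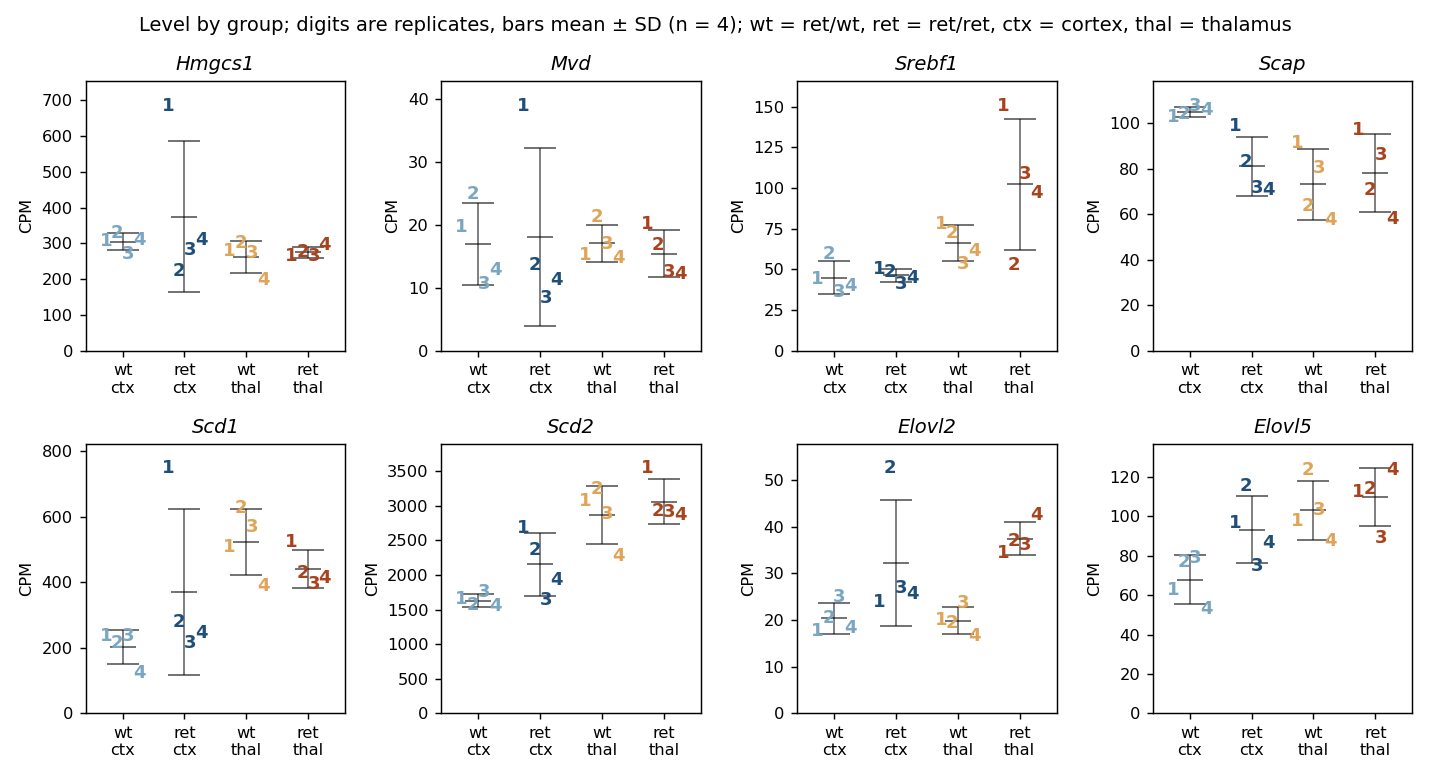
Level (CPM, linear axes from 0) of 8 of the genes in the 4 groups; digits are the replicate numbers, and bars give the mean and SD (n = 4). Replicate 1 of ret/ret cortex lies alone at the top for Hmgcs1, Mvd and Scd1, while Scd2 is lower in ret/wt cortex than in thalamus and Elovl2 is higher in ret/ret thalamus than in ret/wt thalamus.

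The 3 enzymes that build saturated fatty acids were Acly, which releases acetyl-CoA from citrate, Acaca, the carboxylase, and Fasn, the synthase. None passed a test in the 5 comparisons. Acly averaged 211 ± 22.2 CPM in ret/wt cortex, 182 ± 25.9 CPM in ret/ret cortex, 273 ± 53.4 CPM in ret/wt thalamus and, with n = 4 in each group, 234 ± 21.8 CPM (SD) in ret/ret thalamus, and its genotype differences were -0.19 in thalamus (SE 0.18) and -0.20 in cortex (SE 0.16) on the log2 scale. Fasn ran from 143 to 412 CPM in ret/wt cortex and from 310 to 555 CPM in ret/ret thalamus, and its genotype differences were 0.25 (SE 0.24) and 0.17 (SE 0.34). Acaca was spread most in ret/wt thalamus, from 67.9 to 225 CPM.

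The desaturases Scd1 and Scd2 place the first double bond in saturated fatty acids, and both are abundant in myelinating tissue. In ret/wt, Scd1 was at 235, 214, 235 and 124 CPM in cortex and at 506, 625, 568 and 389 CPM in thalamus. Scd2 was at 1652, 1566, 1753 and 1554 CPM in cortex and at 3067, 3246, 2889 and 2279 CPM in thalamus. For both genes every ret/wt thalamus library exceeded every ret/wt cortex library. Scd1 was 2.60-fold higher (1.38 on the log2 scale, SE 0.24, the edgeR quasi-likelihood test, adjusted p = 0.00497) and Scd2 1.77-fold higher (0.82, SE 0.18, adjusted p = 0.0134), and both calls were kept at 0.05 in all 16 other settings, with adjusted p up to 0.0229 and up to 0.0476.

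In ret/ret, Scd1 was at 747, 278, 213 and 245 CPM in cortex and at 524, 428, 395 and 413 CPM in thalamus. Scd2 was at 2677, 2365, 1639 and 1933 CPM in cortex and at 3544, 2925, 2907 and 2869 CPM in thalamus. For Scd1 the 4 thalamus libraries lay above cortex replicates 2 to 4 and below cortex replicate 1, and for Scd2 the regions did not overlap. The differences were 0.25 (SE 0.38, the edgeR quasi-likelihood test, adjusted p = 0.718) for Scd1 and 0.51 (SE 0.20, adjusted p = 0.131) for Scd2. The Scd1 difference was 0.16 without the ret/ret 2 animal, which stood apart. Without cortex replicate 1 the Scd1 difference was 0.87 (adjusted p = 0.0262 in the edgeR quasi-likelihood test). That library was singled out after its high values were seen, so this p is descriptive only.

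The genotype difference of Scd1 in cortex also moved with that library. It was 0.90 on the log2 scale (SE 0.41, unadjusted p = 0.0520, adjusted p = 0.999 in the edgeR quasi-likelihood test) and 0.30 without it. In thalamus Scd1 differed by -0.21 (SE 0.19, adjusted p = 1). The difference between the 2 genotype effects, -1.12 (SE 0.47), had the smallest unadjusted p of the 34 genes in that test (0.0303, adjusted p = 1) and was -0.53 without that library. For Scd2 the genotype differences were 0.42 in cortex (SE 0.20, adjusted p = 0.999) and 0.13 in thalamus (SE 0.17, adjusted p = 1).

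Markers of oligodendrocytes also showed a step between regions. All 11 passed as higher in ret/wt thalamus, with a median of 1.68 on the log2 scale, and 9 of 11 passed in ret/ret, with a median of 1.43. Their summed level was 1204 to 3208 CPM in ret/wt cortex, 1741 to 3157 CPM in ret/ret cortex, 6606 to 8247 CPM in ret/wt thalamus and 7361 to 10171 CPM in ret/ret thalamus, and none was at 0 in any library. The ranges of cortex and thalamus did not overlap. Within ret/ret cortex, replicate 1 had the lowest sum, 1741 CPM, and the highest Scd1 and Scd2, at 747 and 2677 CPM. Within ret/wt cortex, replicate 4 had the lowest sum and the lowest Scd1 and Scd2. The part of oligodendrocytes in the levels of Scd1 and Scd2 was not tested.

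**Figure D5:**
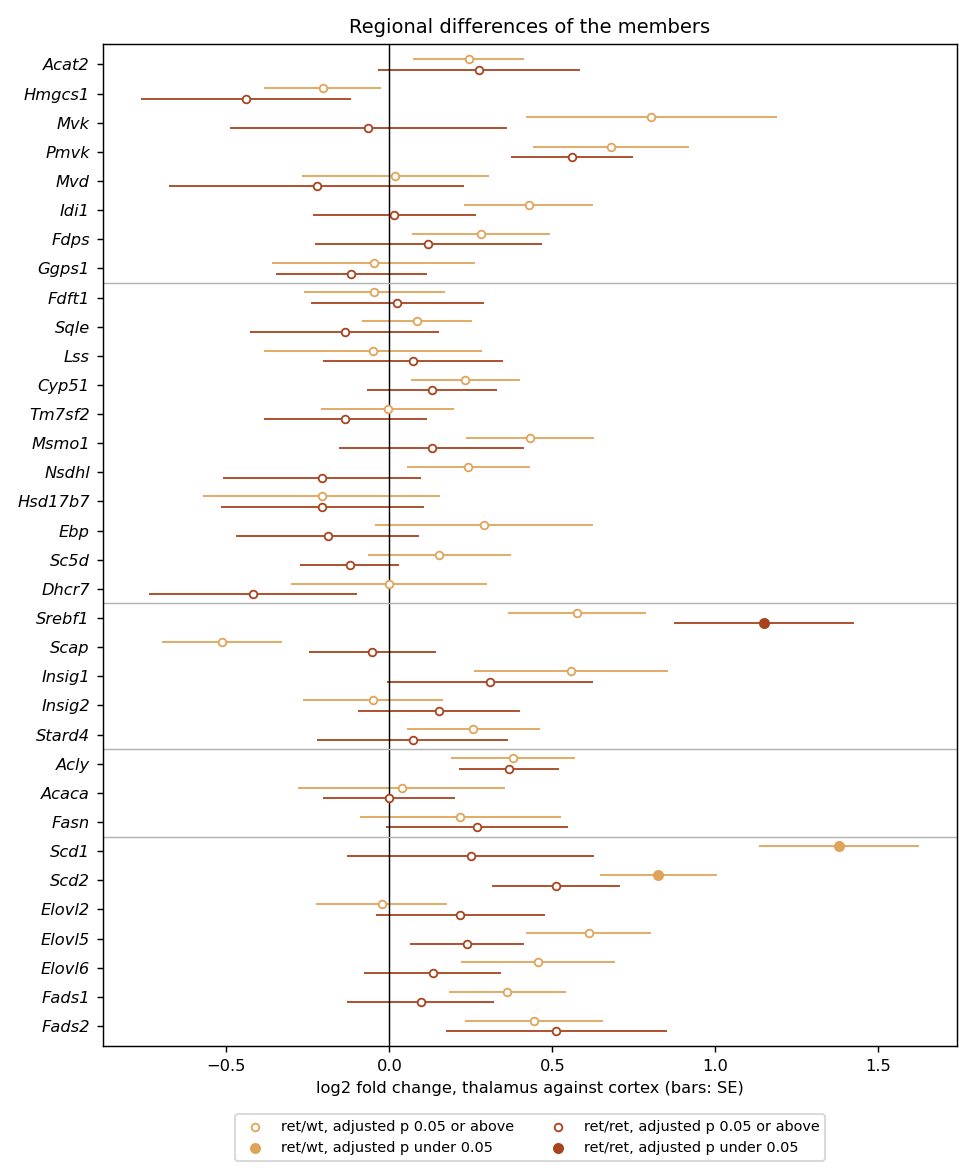
Log2 fold change of thalamus against cortex (horizontal axis) for each of the 34 genes (rows, by role), in ret/wt and ret/ret, from the edgeR quasi-likelihood fit. Points are estimates and bars are 1 SE; the filled points, with adjusted p under 0.05, are Scd1 and Scd2 in ret/wt and Srebf1 in ret/ret.

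Elovl2, which lengthens polyunsaturated fatty acids on the way to docosahexaenoic acid and is mainly made by astrocytes in brain, had the smallest p for genotype. It was at 34.4, 36.8, 36.0 and 42.5 CPM in ret/ret thalamus and at 19.99, 19.4, 23.6 and 16.6 CPM in ret/wt thalamus. The groups did not overlap, which held for 2.73% of all genes and for none of the other 33. The 1.93-fold difference (0.95 on the log2 scale, SE 0.18) had an unadjusted p of 0.000288 and an adjusted p of 0.426 in the edgeR quasi-likelihood test, and DESeq2 gave an adjusted p of 0.000391. With 1 library left out at a time it stayed between 0.88 and 1.04.

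In cortex Elovl2 was at 24.0, 52.5, 26.9 and 25.6 CPM in ret/ret and at 17.7, 20.4, 25.0 and 18.2 CPM in ret/wt. The highest value was that of ret/ret replicate 2, the animal with cerebellar transcripts, whose cortex library also had the highest sum of astrocyte markers of the 16, 9486 CPM. The difference was 0.69 (SE 0.27, unadjusted p = 0.0306, adjusted p = 0.999 in the edgeR quasi-likelihood test) and 0.34 without that library, or 0.45 without both animals that stood apart. Between regions of ret/ret, Elovl2 differed by 0.22 (SE 0.26, adjusted p = 0.633 in the edgeR quasi-likelihood test). Without the ret/ret 2 animal it passed (0.58, adjusted p = 0.0499 in the same test). The cortex library of that animal held the highest Elovl2 value of its group, so leaving it out widens the step by construction. The difference between the Elovl2 genotype effects was 0.25 (SE 0.32, adjusted p = 1) and 0.59 without both animals that stood apart (adjusted p = 1). Of 10 astrocyte markers, 8 had a positive log2 fold change for ret/ret in thalamus (median 0.32) and 9 in cortex (median 0.52), with 0 passing in either. Their part in the Elovl2 level was not tested.

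Elovl5 elongates polyunsaturated fatty acids of shorter chain. It was at 62.4, 77.0, 79.0 and 53.2 CPM in ret/wt cortex, at 96.4, 115, 74.9 and 86.2 CPM in ret/ret cortex, at 97.5, 124, 103 and 87.6 CPM in ret/wt thalamus and at 112, 114, 89.2 and 123 CPM in ret/ret thalamus. The ret/wt cortex libraries lay below all ret/wt thalamus libraries, while the cortex libraries of the 2 genotypes overlapped. Its genotype difference in cortex was 0.48 (SE 0.19, unadjusted p = 0.0315, adjusted p = 0.999 in the edgeR quasi-likelihood test) and in thalamus 0.13 (SE 0.17). Its regional difference was 0.61 in ret/wt (SE 0.19, adjusted p = 0.0655) and 0.24 in ret/ret (SE 0.18, adjusted p = 0.416). The difference between the genotype effects was -0.37 (SE 0.25, unadjusted p = 0.169, adjusted p = 1).

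Elovl6 (which elongates saturated fatty acids) and the desaturases Fads1 and Fads2 passed no test. Elovl6 lay between 62.6 and 128 CPM over the 16 libraries, with ret/wt thalamus replicate 4 at 75.6 CPM below the other 3 of its group at 124 to 128 CPM. Fads1 ran from 221 to 451 CPM and Fads2 from 68.1 to 206 CPM. The highest of both was ret/ret thalamus replicate 1, the library that was also highest for Srebf1 and Scd2. All 7 desaturases and elongases had a positive genotype difference in cortex, with a median of 0.42 on the log2 scale, beside 51.9% of all genes, and 4 of 7 did in thalamus, with a median of 0.13, beside 47.1%. The cortex count leans in part on ret/ret cortex replicate 1, the highest of its group for 4 of the 7. Fads2 was at 160 CPM in it against 68.1 to 79.5 CPM in the other 3, and the Scd1 difference was 0.30 without it. The other 5 were less than 1.5-fold above the mean of the other 3. In cortex, 10 of 11 oligodendrocyte markers (median 0.31) and 9 of 10 astrocyte markers (median 0.52) were positive too, with 0 passing the edgeR quasi-likelihood test. Against the other 3 of the group, all 11 oligodendrocyte markers were low by 1.5-fold in ret/wt replicate 4. In ret/wt replicate 3, 7 of the 11 were high by that factor, and in ret/ret replicate 1, 8 were low. In ret/ret replicate 2, 7 of 10 astrocyte markers were high by that factor and 2 low. The part of either cell type in these 7 genes was not tested.

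By role, the regional counts differed. In ret/wt, 6 of 7 desaturases and elongases were higher in thalamus (median 0.46 on the log2 scale), 6 of 8 early sterol enzymes (median 0.26) and 6 of 11 later ones (median 0.086). In ret/ret the counts were 7 of 7 (median 0.24), 4 of 8 (median -0.024) and 4 of 11 (median -0.13). Over the 34 genes, 24 were higher in ret/wt thalamus with a median of 0.24 and 21 in ret/ret with a median of 0.085, beside 0.028 with 52.2% higher and -0.018 with 48.7% higher for all genes. Without ret/ret cortex replicate 1, 31 of 34 were higher in ret/ret thalamus, with a median of 0.30, and 4 passed (the edgeR quasi-likelihood test). That library was singled out for its high values of these same genes. The counts and calls without it describe its weight and are no independent test. Without the ret/ret 2 animal, which stood apart, the ret/ret median was 0.037, with 18 higher.

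Groups without overlap between regions numbered 3 of 34 in ret/ret (Pmvk, Srebf1 and Scd2), beside 17.5% of all genes, and 5 of 34 in ret/wt (Pmvk, Scap, Scd1, Scd2 and Elovl5), beside 19.9% of all genes. The comparisons of genotype and of region share libraries, and each is given by its own values. For the difference of differences, 10 of the 34 genes were positive with a median of -0.16, beside -0.043 and 44.4% positive for all genes. Without ret/ret cortex replicate 1, 22 were positive with a median of 0.079.

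Other genes of these pathways were counted from lists. Of 17 other sterol and SREBP genes, 3 passed between regions in ret/ret, 2 higher in thalamus and 1 lower, and 1 in ret/wt. Lpin1, a phosphatidate phosphatase that also modulates SREBP activity, passed in both (1.08, SE 0.19, adjusted p = 0.00950, and 1.05, SE 0.28, adjusted p = 0.0353 in the edgeR quasi-likelihood test), and Acat1, the mitochondrial thiolase, in ret/ret (0.53, SE 0.14). Of 22 other fatty acid genes, 1 passed in ret/ret and 4 in ret/wt. Elovl1, an elongase of very long saturated chains, was at 6.73 to 11.3 CPM in ret/wt cortex and at 19.5 to 25.7 CPM in ret/wt thalamus (1.38, SE 0.23), and it passed in both genotypes.

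The others were Fads6 (higher in ret/wt thalamus, 1.30, SE 0.32), the acyl-CoA synthetase gene Acsl5 (-0.96, SE 0.26) and the lipogenic regulator Thrsp (-0.83, SE 0.22). Of the oxysterol and LXR genes, Cyp27a1, a sterol hydroxylase, passed in ret/wt, at 1.63 to 4.79 CPM in cortex and 7.60 to 11.48 CPM in thalamus, and none of 11 passed in ret/ret. For genotype, 0 genes of these 3 lists passed in either region in the edgeR quasi-likelihood test, with 1 at an unadjusted p under 0.05 in thalamus and 2 in cortex.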

How the data were processed

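The authors deposited estimated counts per Ensembl gene, which had been made from the reads before deposit, per the submitters' processing notes, for 16 libraries of polyA-enriched RNA, and 0 columns of the table were left unused. The submitters' processing notes name kallisto 0.44.0 and the build GRCm38.p6, without saying in which step, and how transcripts were summed to genes is not given in the sources used here. Identifiers were matched to symbols with GENCODE mouse release M21 (21612 of 21804, 99.1%). Close paralogs share sequence, so their estimated counts are uncertain.

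Estimated counts were rounded to whole numbers and tested with edgeR 4.0.16 (R 4.3.3): filterByExpr (minimum count 10, minimum total 15), TMM scaling, the quasi-likelihood test, and Benjamini-Hochberg adjustment over all genes tested, with calls at 0.05. A comparison of 2 groups used only those 8 libraries, and the difference of differences used all 16. Group was the only factor in these main fits. The region tests and the difference of differences therefore treated cortex and thalamus of the same animal as independent. The SE of a log2 fold change is its size divided by the root of the F statistic. The fits were tested on simulated data: in the thalamus genotype design with 14767 genes, 10.4% of genes planted at 1 log2 unit and 78.3% of those at 2 were called. Alternatives were DESeq2 1.42.0, limma-voom (limma 3.58.1), other scalings, no filter, a replicate block, libraries left out, all 16 libraries in one fit and a threshold of 0.01. Ratios to other libraries had 0.5 CPM added; leaving ret/ret cortex replicate 2 out of them was chosen after seeing the data. With 4 animals a group the precision is limited. The smallest count of the 34 genes in any library was 130.

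Cortex and thalamus with the same number within a genotype came from the same animal, per the labels. Their deviations from group means correlated at 0.24, -0.0039, 0.091 and 0.027 in ret/ret and at 0.084, -0.016, 0.19 and -0.017 in ret/wt. The genes given in full are those called between regions, the 4 with the smallest unadjusted p in each genotype comparison and in the difference of differences, and the regulators. Pmvk and the enzymes shown for 1 library were chosen after their values were seen. That library, ret/ret cortex replicate 1, was singled out in the same way, so results without it only describe its weight. The genes and lists were chosen with earlier results of these data known. Some genes of these lists are not reported here by name.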

Additional observations from a re-analysis of the deposited data

Results flagged for a closer look

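Of 136 groups of 4 libraries (34 genes in 4 groups), 12 held a library whose gap to the nearest of the others exceeded Dixon's critical value, as a share of the group's range, and chance gives about 1 in 20 groups. Of the 12, 7 were high values of ret/ret cortex replicate 1: Acat2 at 91.6, Mvk at 53.2, Mvd at 39, Fdps at 121, Nsdhl at 57.1, Scd1 at 747 and Fads2 at 160 CPM. In ret/ret cortex replicate 2, Elovl2 was far above the others at 52.5 CPM. In ret/ret thalamus, Lss was high in replicate 2 at 61.9 CPM and Scd2 in replicate 1 at 3544 CPM. In ret/wt thalamus replicate 4, Fdps was high at 98.9 CPM and Elovl6 low at 75.6 CPM. The 34 genes of a library are not independent of each other, so the 7 values of 1 library are not 7 separate events.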

How the results depend on the processing

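Of 43 results for single genes, 31 kept their direction in every alternative run and 12 reversed in some. DESeq2 called more genes than edgeR's quasi-likelihood test: 37 for thalamus genotype (1 of the 34), 38 for cortex genotype, 2591 for ret/ret region (3 of the 34) and 4 for the difference of differences. Fitting all 16 libraries gave 3, and 7 in cortex, for genotype, and 4 of the 34 genes for ret/wt region. Without the ret/wt 3 and ret/ret 2 animals, 1 gene was called for cortex genotype and 2564 for ret/ret region (2 of the 34). A comparison of regions within a genotype holds only 1 of these 2 animals, so only that animal is left out there. At 0.01 the counts were 0 for cortex genotype, 361 for ret/ret region (0 of the 34) and 784 for ret/wt region (1 of the 34). With the animal as a replicate block, 1177 genes were called for ret/ret region (0 of the 34) and 1487 for ret/wt region (2 of the 34). Numbers shared across genotypes belong to different animals; with them as a replicate block, 0 genes were called for genotype in cortex and in thalamus.

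With 1 library left out, the counts among the 34 genes ran from 0 to 4 for ret/ret region and from 2 to 3 for ret/wt region, and were 0 to 0 for the others. Over all genes they ran from 0 to 2 for cortex genotype, 627 to 2007 for ret/ret region and 1178 to 1797 for ret/wt region.

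The differences that reversed lay between -0.24 (Insig1) and 0.21 (Insig2), both in the difference of differences. Without the ret/wt 3 and ret/ret 2 animals, Insig2 was at -0.0052 (thalamus genotype), 0.0135 (cortex genotype), -0.0027 (ret/ret region), 0.0294 (ret/wt region) and -0.0206 (difference of differences), Srebf1 at -0.0509 and Insig1 at -0.0933 (cortex genotype), and Scap at 0.0159 (ret/ret region), on the log2 scale. With library size only, Scap was at 0.0165 (ret/ret region), and Insig2 at 0.0502 and Elovl2 at 0.0711 (ret/wt region). Insig1 in cortex was at -0.0202 with limma-voom and -0.0223 with the replicate block. With 1 library left out the ranges were -0.0051 to 0.25 (Scap), -0.34 to 0.023 (Insig1) and -0.035 to 0.28 (Insig2) for thalamus genotype, -0.038 to 0.22 (Srebf1) and -0.24 to 0.25 (Insig1) for cortex genotype, -0.18 to 0.080 (Scap, ret/ret region), -0.18 to 0.055 (Insig2) and -0.12 to 0.088 (Elovl2) for ret/wt region, and -0.46 to 0.038 (Insig1, difference of differences). The cause was not tested. With 4 animals a group, differences of 1 log2 unit were mostly missed in simulated data.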

Other observations

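Other cell type lists were counted for the same comparisons with edgeR's quasi-likelihood test. All 8 endothelial markers had a positive genotype difference in thalamus (median 0.56 on the log2 scale) and 6 of 8 in cortex (median 0.63), with 0 passing. None of 8 pericyte markers was positive for genotype in thalamus (median -1.04), with 0 passing, and Rgs5 passed as lower in ret/ret cortex. Of 8 neuronal markers, Nefl was higher and Rbfox3 lower in thalamus in both genotypes, and Syt1 was lower in ret/wt. Of 6 markers of oligodendrocyte precursors, Enpp6 was higher in ret/ret thalamus than in ret/ret cortex. Among astrocyte markers, Slc1a3 was lower in thalamus in both genotypes, Slc1a2 was lower in ret/ret and Gjb6 higher in ret/wt. Of the cerebellar markers, Neurod1 was lower in thalamus in both genotypes and Calb1 in ret/wt. No choroid plexus or microglial marker passed in any comparison.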
